A study of Mus musculus with 8 samples.

Results

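The results concern the genes whose response to irradiation differed between a Piezo2 knockout line and its control line. Both derive from MC38, a line from a mouse colon adenocarcinoma. For each gene the interaction was taken as the log2 change after irradiation in the knockout line minus the log2 change after irradiation in the control line. All 8 libraries of the series entered it, and 14923 of the 29079 genes in the count table passed the filter on low counts. The interaction was called for 290 genes, which were 1.94% of the genes tested, in a fit without a term for the replicate number. Same-numbered libraries deviated together from their group means (correlations 0.497 to 0.586), but the labels do not say what a number marks. With a term for it, 1216 genes were called higher and 1276 lower, and all 290 were kept. The number of calls, and what did not pass, thus depend on this choice.

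The study sequenced mRNA from 4 groups of 2 libraries each. The control line, named WT in the labels, carries a CRISPR control, and the knockout line (KO) was made with 1 guide RNA against Piezo2. Each line was either left without irradiation or given 1 fraction of 30 Gy of X-rays, and RNA was taken 60 hours after it. The sources used here do not say whether a line is a single clone, nor whether libraries of 1 group are separate cultures. The p-values therefore measure only the spread between these libraries, which may be technical. With 1 guide, an effect of the loss of Piezo2 cannot be told apart from other differences between these 2 lines.

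Library totals were 10971004 to 19887180 reads. Piezo2 encodes a channel that opens on mechanical force. It had 0 and 0 reads without irradiation and 3 and 9 after it in WT, and 0 and 1, then 7 and 12 in KO, so it failed the filter and these reads do not check the knockout. Of 14 epithelial markers, 12 were analysed and 5 passed the filter. Only the adhesion gene Cdh1 was above 3 CPM (counts per 1000000 reads of a library) in any library, at 38.1 to 79.3, although the labels call the line epithelial. The keratin gene Krt18 had at most 2 reads and Krt8 at most 20. The 14 mesenchymal markers summed to 3890 to 6230 CPM per library. Vim alone was at 2700 to 4340 CPM, while Acta2 and Tagln were under 2 CPM. S100a4 had 45 to 156 reads in the first libraries of the groups and 1061 to 1568 in the second.

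Cells that sense viral or displaced self nucleic acid make type I interferon. Interferon binds its receptor, the kinases JAK1 and TYK2 activate transcription factors, and these bind the interferon-stimulated response element (ISRE) in promoters of antiviral and antigen presentation genes. Irradiated tumour cells are known to switch on this pathway, and the genes it raises include several that a T cell reads on the tumour cell surface.

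Genes with a higher interaction carried the ISRE in their promoters at a share of 24.2% (40 of 165 with a promoter sequence). It was 3.78% for all tested genes (398 of 10516) and 3.08% for genes with a lower interaction (2 of 65). The promoters are RefSeq's for mouse GRCm38.p6, from 250 bases before to 50 after the transcription start. The letters searched were TTTCNNTTTC and GAAANNGAAA, which are the same element read on either strand. The share was 30.8% (33 of 107) among genes raised in both lines and more so in KO, and 14.3% (6 of 42) among genes raised in KO with no called change in WT. Among genes raised in both lines without a called interaction it was 6.46% (98 of 1518). A second element of interferon-responsive promoters, TTCNNNGAA, was found for 14.5% of genes with a higher interaction. It was 3.08% for those with a lower one and 8.24% for all tested. A match describes letters in this window and is not evidence of binding.

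5 promoters are shown. Their genes rose in both lines and more in KO (Slfn9, Irgm1 and Isg15) or had no called change in WT (Ifitm3 and Slc25a22). Genes with a higher interaction and a called fall in WT are not shown. Of these, the match was held by 1 of 4 with no called change in KO. It was 0 of 6 for a smaller fall in KO and 0 of 6 for a rise in KO. All are on the minus strand and are written 5′ to 3′ in the direction of transcription, with matches to the element in capitals. They lie at chr11:82991781-82992080 (Slfn9), chr11:48871371-48871670 (Irgm1), chr7:141010695-141010994 (Ifitm3), chr7:141435326-141435625 (Slc25a22) and chr4:156200769-156201068 (Isg15). All 5 hold a match, which 40 of 165 genes with a higher interaction and a promoter sequence had. Slc25a22 has 3 promoter sequences, and only the 1 shown holds a match.
Slfn9: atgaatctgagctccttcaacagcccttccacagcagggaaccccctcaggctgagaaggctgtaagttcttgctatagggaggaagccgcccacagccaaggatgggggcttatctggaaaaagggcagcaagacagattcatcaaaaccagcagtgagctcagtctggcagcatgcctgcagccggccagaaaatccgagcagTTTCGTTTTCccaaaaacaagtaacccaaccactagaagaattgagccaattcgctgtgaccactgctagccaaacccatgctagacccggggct
Irgm1: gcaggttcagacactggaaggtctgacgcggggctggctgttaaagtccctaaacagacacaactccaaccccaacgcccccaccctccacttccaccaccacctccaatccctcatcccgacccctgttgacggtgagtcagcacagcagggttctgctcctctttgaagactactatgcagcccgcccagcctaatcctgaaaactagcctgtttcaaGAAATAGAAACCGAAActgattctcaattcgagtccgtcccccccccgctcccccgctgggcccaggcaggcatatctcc
Ifitm3: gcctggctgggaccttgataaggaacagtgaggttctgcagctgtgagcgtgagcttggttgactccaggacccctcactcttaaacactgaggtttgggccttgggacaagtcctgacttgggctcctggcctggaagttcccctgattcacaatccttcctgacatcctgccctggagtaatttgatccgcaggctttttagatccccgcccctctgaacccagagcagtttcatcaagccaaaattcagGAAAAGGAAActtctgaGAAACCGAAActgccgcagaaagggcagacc
Slc25a22: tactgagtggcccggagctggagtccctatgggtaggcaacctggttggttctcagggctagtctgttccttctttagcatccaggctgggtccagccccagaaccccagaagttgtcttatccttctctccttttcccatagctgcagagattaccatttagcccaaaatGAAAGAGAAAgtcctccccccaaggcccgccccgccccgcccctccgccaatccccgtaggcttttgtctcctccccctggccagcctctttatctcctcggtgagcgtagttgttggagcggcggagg
Isg15: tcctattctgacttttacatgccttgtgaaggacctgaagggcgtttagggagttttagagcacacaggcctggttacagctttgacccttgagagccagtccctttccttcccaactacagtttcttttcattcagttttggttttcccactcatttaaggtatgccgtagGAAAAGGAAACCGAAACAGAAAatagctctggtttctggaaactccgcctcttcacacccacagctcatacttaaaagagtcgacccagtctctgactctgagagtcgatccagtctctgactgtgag
Counted from the first transcribed base as +1, the match of Slfn9 begins at -45 and that of Slc25a22 at -79. The 2 matches of Irgm1 overlap and begin at -30 and -24. Those of Isg15 also overlap, and their first bases are -78, -72 and -66. The 2 of Ifitm3 lie after the start, at 3 and 20.

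Without a term for the replicate number, most of the called genes had a higher interaction. A higher interaction is a higher signed change in KO and not always a larger one. With that term higher genes were not the majority (1216 higher and 1276 lower). Without it, the interaction was higher for 205 genes (1.37% of those tested) and lower for 85 (0.57%). Of these, 142 and 46 differed by at least 2-fold between the lines. The irradiation response itself was called for 5798 genes in WT (38.9%) and 5927 in KO (39.7%). It was called in both lines for 4282 genes, of which 4256 changed in the same direction. A further 1584 genes passed the test in KO alone and 1488 in WT alone without a called interaction, so for these a difference between the lines was not shown. Calls are at an adjusted p under 0.05 (edgeR's quasi-likelihood test, Benjamini-Hochberg adjustment), and 1857 genes had an unadjusted p under 0.05.

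The 290 genes were sorted by their response in each line. The response was larger in KO in the same direction (enlarged) for 130 genes with a higher interaction, all raised by irradiation, and for 11 with a lower one, all reduced by it. It was called in KO alone (gained) for 50 higher and 11 lower genes. It was called in WT alone (lost) for 8 higher and 20 lower genes, and smaller in KO in the same direction (reduced) for 8 and 32. The remaining 9 higher and 11 lower genes changed in opposite directions in the 2 lines (reversed). Without one of the 8 libraries, 99 to 124 higher and 18 to 31 lower genes were called. Of the 290, 96 (83 higher and 13 lower) were called without each of the libraries in turn, and 84 in none of these 8 fits.

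**Figure D1:**
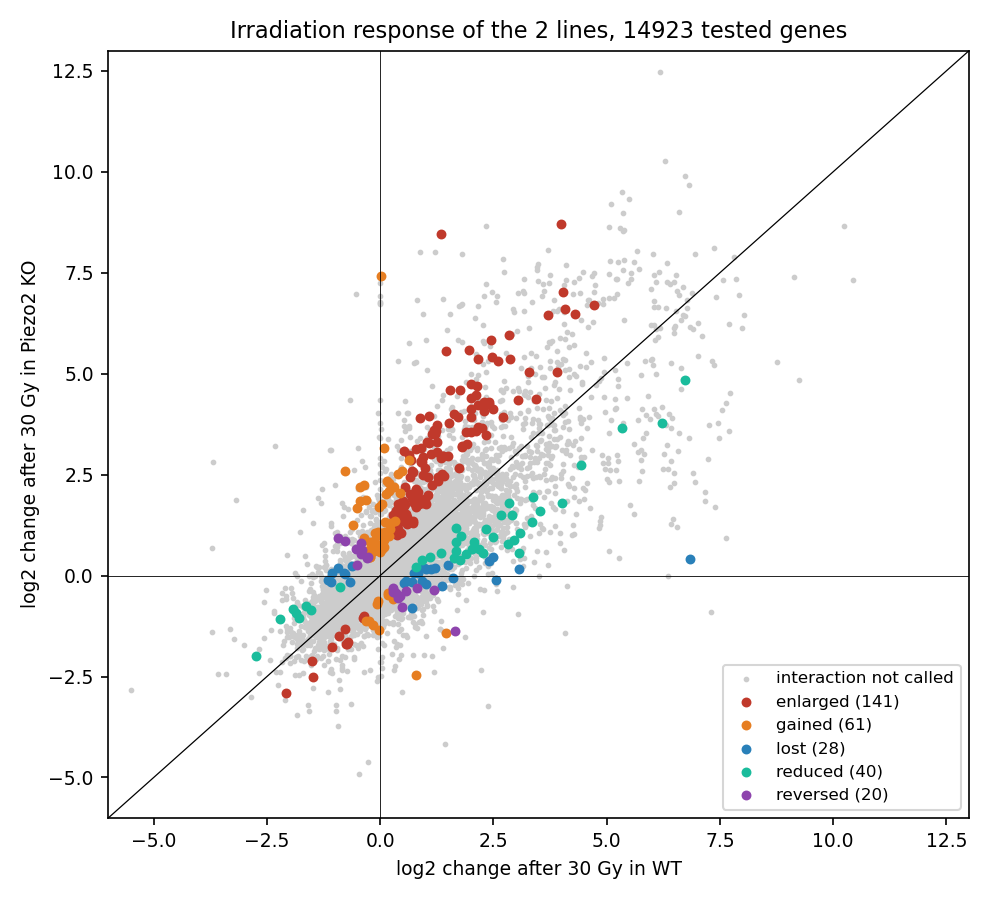
Each point is 1 of the 14923 tested genes, with its log2 change after 30 Gy in WT on the x axis and in KO on the y axis. Colours mark the response class of the 290 genes with a called interaction and the diagonal marks equal responses: the 141 enlarged genes lie mostly above it at the upper right, and the 20 reversed genes have opposite signs on the 2 axes.

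The lines were also compared with each other at each condition. Of all tested genes, 19.9% were called between the lines without irradiation and 24.6% after it. For the 205 higher genes the median KO to WT difference was 0.00 (log2) without irradiation and 1.27 after it, and 127 of them differed between the lines after irradiation only, 15 before it only and 63 at both. For the 85 lower genes the median was 0.92 without irradiation and -0.14 after it, and 35 differed before irradiation only, 9 after it only and 41 at both. KO was above WT without irradiation for 70 of the 85. The interaction and the difference without irradiation share the non-irradiated libraries, so these counts describe the genes and are not separate evidence. On the linear CPM scale the interaction kept its sign for 201 of the 205 and 75 of the 85.

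**Figure D2:**
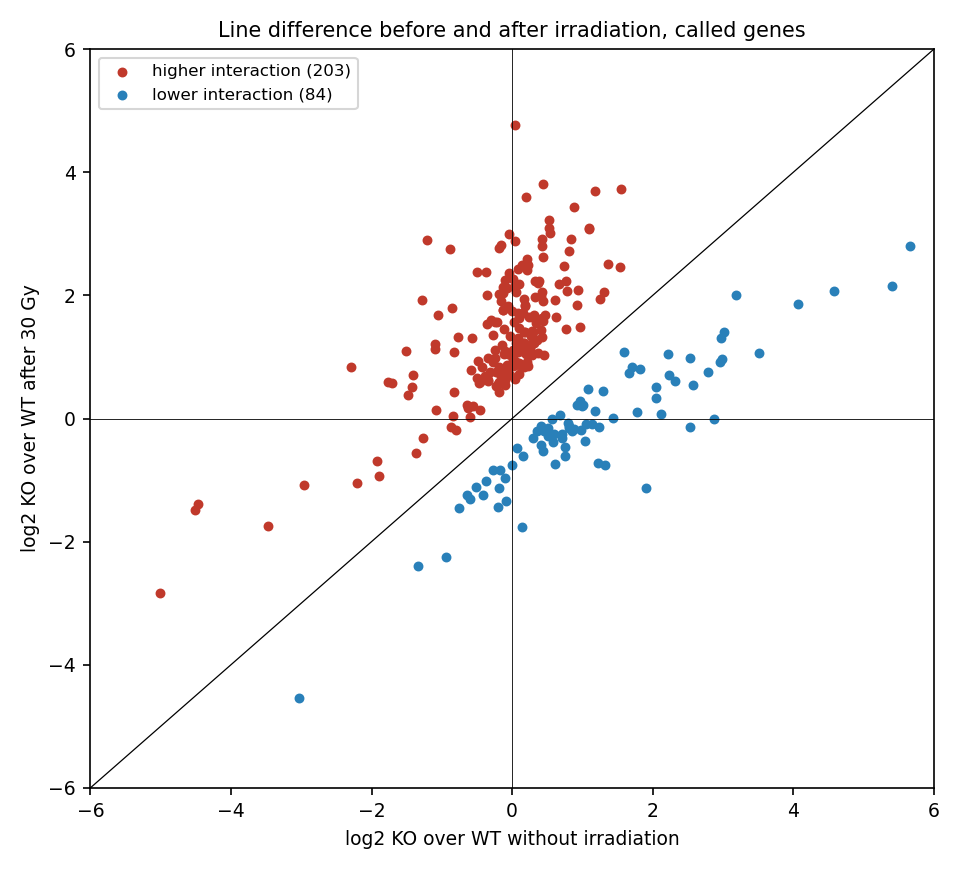
Each point is a gene with a called interaction, with the log2 difference of KO over WT without irradiation on the x axis and after 30 Gy on the y axis; 3 genes with a group at 0 reads are left out. The higher genes (red, 203) spread upwards from about 0 on the x axis, while most lower genes (blue, 84) lie to the right of 0, already above WT without irradiation.

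Of all tested genes, 1.37% had a higher and 0.57% a lower interaction, and 7323 of 14923 had a positive estimate. Each gene list below is set against these shares. Antiviral genes induced by interferon were the list with the most higher calls. Of 40 tested, 18 had a higher interaction and 0 a lower one, with a median interaction of 1.64 (log2) against -0.01 for all tested genes. Without 1 library, 12 to 15 of them were called. The list's median response was 3.96 in WT and 5.42 in KO. Its median KO to WT difference was already 1.36 without irradiation.

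Ifit2 encodes a protein that binds viral RNA. It was at 47.1 and 46.5 CPM without irradiation and 74.7 and 66.0 after it in WT, and at 91.1 and 83.3, then 802 and 714 in KO. The irradiated KO libraries stood far above the other 6, and the interaction was 2.56 ± 0.14 (log2, SE; edgeR adjusted p = 0.000398). Slfn9, a Schlafen family gene, was at 121 and 126 CPM in non-irradiated WT and 249 and 242 after irradiation, against 103 and 99.5 and then 726 and 743 in KO. KO was the lower line before irradiation and the higher one after it (interaction 1.90 ± 0.10, edgeR adjusted p = 0.000398). Slfn8, its neighbour, had an interaction of 3.64 ± 0.34 (edgeR adjusted p = 0.00232). For Sp100, a nuclear body protein, the interaction was 1.91 ± 0.13 (edgeR adjusted p = 0.000968).

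Ifitm3, which blocks virus entry at membranes, had a called response in KO alone (log2 change 0.16 in WT, edgeR adjusted p = 0.194). It was at 88.7 and 81.7 CPM in non-irradiated WT and 106 and 92.5 after irradiation, against 78.1 and 78.7 and then 410 and 399 in KO. The 6 libraries other than irradiated KO lay within 78.1 to 106 CPM, and the interaction was 2.17 ± 0.12 (edgeR adjusted p = 0.000542). Isg15, a ubiquitin-like protein, was at 1.36 and 1.18, then 30.2 and 22.7 CPM in WT, and at 3.74 and 3.82, then 330 and 365 in KO. It rose in both lines, and the interaction was 2.18 ± 0.31 (edgeR adjusted p = 0.0138). Ifit2, Slfn8, Slfn9, Sp100 and Ifitm3 were called without each of the 8 libraries in turn, whereas Isg15 was called in 4 of these 8 fits (adjusted p up to 0.142) and Slfn2 in 0 (up to 0.35).

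The 22 antiviral genes that did not pass had a median interaction of 0.87, and 17 were positive. Their median level in non-irradiated WT was 0.306 CPM, against 18.3 for the 18 that passed, and their median SE was 0.72 against 0.20. Ifit1, another RNA-binding protein of this family, was at 0.415 and 0.591, then 44.7 and 25.2 CPM in WT, and at 7.11 and 5.43, then 681 and 724 in KO. Both irradiated KO libraries were far above irradiated WT, but KO was also above WT without irradiation, and the interaction was 0.76 ± 0.70 (edgeR adjusted p = 0.771).

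In the signalling part of the pathway 5 of 24 genes had a higher interaction and 0 a lower one (list median 0.25). Stat2, a transcription factor activated by the interferon receptor, was at 23.7 and 23.5, then 113 and 107 CPM in WT, and at 38.2 and 37.3, then 469 and 524 in KO. It was higher in KO at both conditions, by more after irradiation, with an interaction of 1.53 ± 0.11 (edgeR adjusted p = 0.00117). The transcription factor Irf1 was lower in KO than WT before irradiation and higher after it, with an interaction of 1.15 ± 0.14 (edgeR adjusted p = 0.00661).

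Socs1, the feedback inhibitor of JAK kinases, was a gained gene. It was at 10.4 and 13.1, then 10.5 and 8.60 CPM in WT, and at 4.10 and 4.17, then 20.7 and 19.6 in KO. KO had the lowest levels without irradiation and the highest after it (interaction 2.61 ± 0.24, edgeR adjusted p = 0.00223). Stat2, Irf1 and Socs1 were called without each of the 8 libraries. Irf7, which amplifies interferon production, was at 2.25 and 0.985, then 32.7 and 24.3 CPM in WT, and at 8.75 and 7.49, then 349 and 327 in KO. Its interaction of 1.32 ± 0.40 did not pass in edgeR (adjusted p = 0.204) and passed in DESeq2 (adjusted p = 0.00353). Ifnb1, the interferon-beta gene, had 1 and 0 reads, then 4 and 4 in WT, and 1 and 0, then 129 and 118 in KO. With the non-irradiated groups at or below the level of 3 reads, no fold is given for it, and its interaction did not pass (edgeR adjusted p = 0.397).

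Of 22 tested sensors of nucleic acid, 12 had a higher interaction and 0 a lower one, with a median of 1.23. Tlr3, an endosomal receptor of double-stranded RNA, was at 14.5 and 13.0, then 38.6 and 30.0 CPM in WT, and at 20.8 and 16.9, then 262 and 247 in KO. The irradiated KO libraries were above all others (interaction 2.48 ± 0.20, edgeR adjusted p = 0.00169). The cytosolic RNA sensor Ifih1 had an interaction of 2.08 ± 0.14 (edgeR adjusted p = 0.000968). For the RNA-activated kinase Eif2ak2 it was 1.67 ± 0.12 (edgeR adjusted p = 0.000968). Ifi203, of a family that includes DNA sensors, had an interaction of 1.74 ± 0.14 (edgeR adjusted p = 0.00169). All 4 were called without each of the 8 libraries.

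Among the guanylate-binding and immunity-related GTPases, which act on the vacuoles of intracellular pathogens, 5 of 18 were higher and 0 lower, with a median interaction of 2.22. DESeq2 called 9. The count was 3 or 2 without WT non-irradiated 1 or 2, it was 2 without any 1 of the 4 KO libraries, and without WT irradiated 1 or 2 it was 7 or 6. Irgm1 was at 18.7 and 19.1, then 111 and 97.1 CPM in WT, and at 25 and 24.6, then 480 and 489 in KO (interaction 1.86 ± 0.12, edgeR adjusted p = 0.000932). It rose in both lines, and the irradiated KO libraries were above irradiated WT. Ifi47 had an interaction of 2.85 ± 0.26 (edgeR adjusted p = 0.00223). Both were called without each of the 8 libraries. Irgm2 (edgeR adjusted p = 0.022), Igtp (0.0371) and Tgtp1 (0.0382) were called in 3, 2 and 2 of these 8 fits, with adjusted p up to 0.138, 0.208 and 0.23. The 13 that did not pass had a median level of 0.063 CPM in non-irradiated WT. Reads of near-identical copies in these families may be split between them, so single values are uncertain.

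Several of these genes lay side by side. Runs were taken as at least 3 genes with a higher interaction separated by at most 200000 bases on mm10. The one with the most genes, on chromosome 11 from 48861968 to 49135387, held 7 higher genes, among them Irgm1, Tgtp1 and Ifi47, and all 11 tested genes in the interval had a positive estimate, a count that the choice of the 7 fixes in part. A run of 6 genes of the Ifi200 family lay on chromosome 1 from 173630917 to 173942672, with 8 of 8 tested genes positive. The Schlafen genes formed a run of 5 on chromosome 11 from 82978390 to 83215154, again with 8 of 8 positive. Psmb9, Tap1 and Psmb8 were neighbours on chromosome 17 from 34181987 to 34201454, and no other tested gene lay in that interval. A second run on that chromosome, from 36005695 to 36042747, held H2-T24, H2-T23 and H2-T22, and 3 of 4 tested genes there were positive. It was 3 of 4 as well on chromosome 16 from 35832874 to 35972605, around Parp14, Dtx3l and Parp9. In every run the called genes are positive by the choice itself. In both runs with 3 of 4, the only other tested gene did not have a positive estimate. The other 2 of the 8 runs held Hist1h2bc, Hfe and Hist1h1c, and Agrn, Isg15 and Perm1.

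Genes of MHC class I presentation had a positive interaction in 22 of 22 cases, and 10 were called, all higher (median 0.79). DESeq2 called 15. Without 1 library 6 to 8 were called, with 6 without the first non-irradiated KO library. They load peptides from the cytosol onto MHC class I for T cells to read. Tap1, a subunit of the peptide transporter, had the smallest adjusted p named here. It was at 17.4 and 18.1, then 40.4 and 37.8 CPM in WT, and at 12.9 and 12.6, then 203 and 201 in KO. KO was below WT without irradiation and above it afterwards, with no overlap at either condition (interaction 2.88 ± 0.11, edgeR adjusted p = 0.000132).

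The immunoproteasome subunit Psmb9 was at 2.31 and 2.37, then 13.4 and 8.71 CPM in WT, and at 0.82 and 1.06, then 40.9 and 41.4 in KO (interaction 3.20 ± 0.35, edgeR adjusted p = 0.00412). It showed the same order of the lines as Tap1. Psmb10, another such subunit, had an interaction of 1.35 ± 0.14 (edgeR adjusted p = 0.00394). Nlrc5, the transcriptional activator of MHC class I genes, was at 23.2 and 27.7, then 50.2 and 51.8 CPM in WT, and at 25.2 and 28.1, then 212 and 208 in KO. The lines overlapped before irradiation only (interaction 1.99 ± 0.14, edgeR adjusted p = 0.000968). H2-T22, a non-classical class I gene, had an interaction of 1.81 ± 0.13 (edgeR adjusted p = 0.000968). All 5 were called without each of the 8 libraries.

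The classical heavy chain H2-K1 rose in both lines, from 384 and 350 to 884 and 771 CPM in WT and from 383 and 358 to 1270 and 1127 CPM in KO. The difference of 0.55 ± 0.15 did not pass in the main test (edgeR adjusted p = 0.146) but did in DESeq2 (adjusted p = 0.0276). The light chain B2m had an interaction of 0.59 ± 0.15, which likewise did not pass in edgeR (adjusted p = 0.124) and passed in DESeq2 (adjusted p = 0.0124). Across the class I list, KO was called below WT without irradiation for 5 of 22 genes and above it for 0, against 9.49% and 10.4% of all tested genes. Of 5 tested class II genes, 0 had a called interaction.

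**Figure D3:**
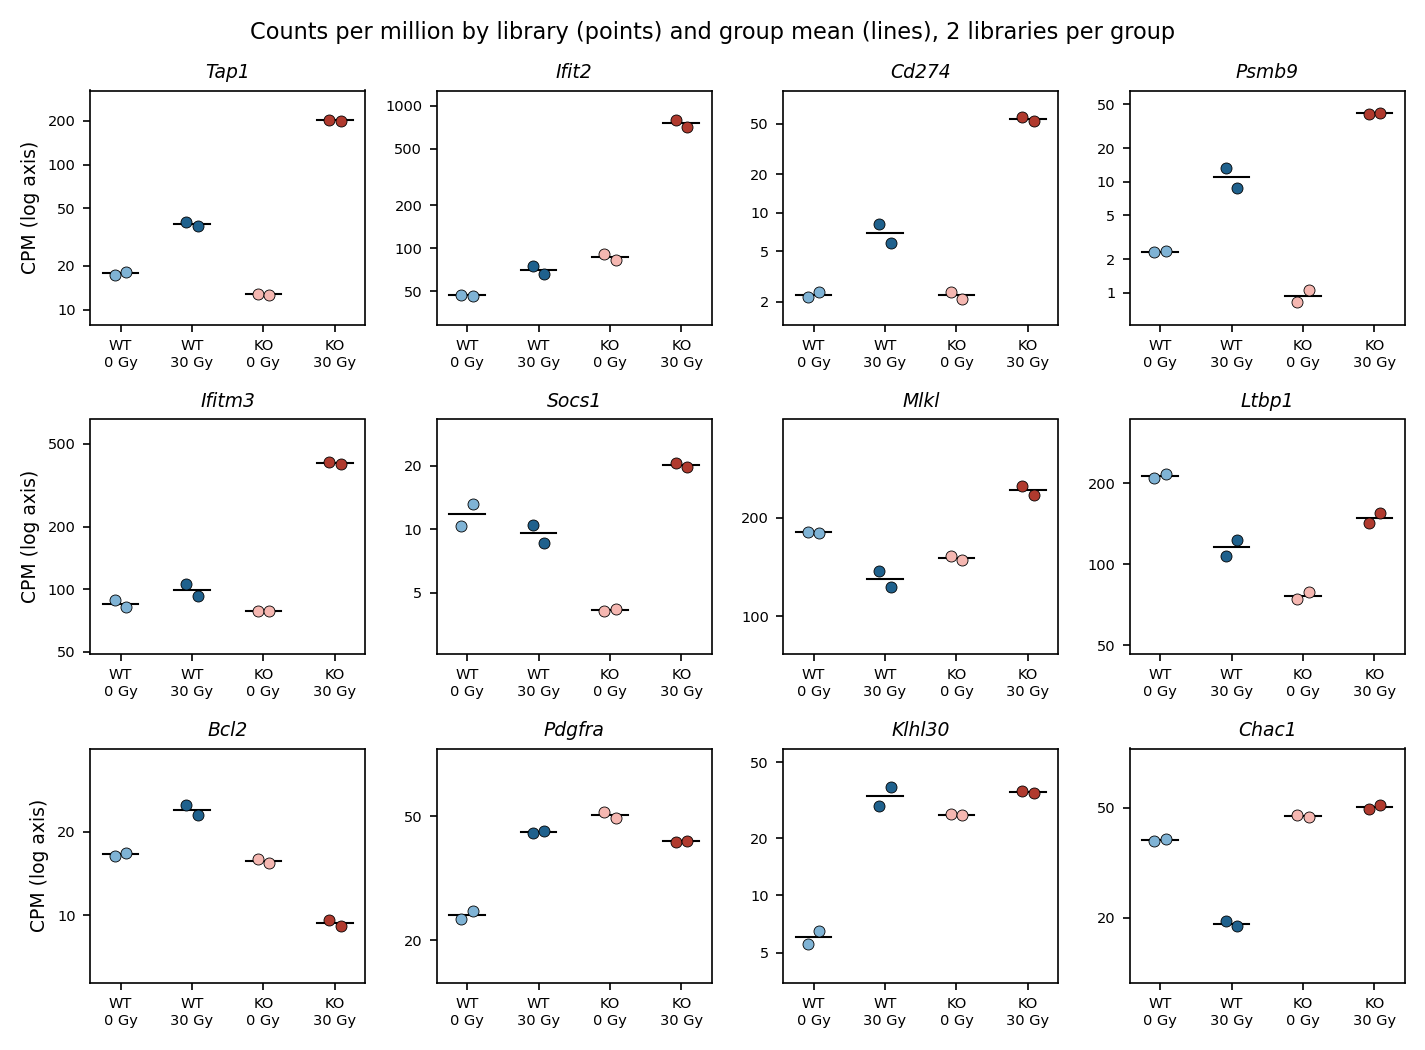
CPM (log axis) of 12 genes in each of the 8 libraries, with points for libraries, lines for group means and groups on the x axis (WT and KO, without irradiation and after 30 Gy). Tap1, Ifit2, Cd274 and Psmb9 rise in both lines and most in KO, Ifitm3 and Socs1 have a called rise in KO alone, Mlkl and Ltbp1 fall in WT and rise in KO, Bcl2 and Pdgfra do the opposite, and Klhl30 and Chac1 have a called change in WT alone.

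In the list of checkpoint, co-stimulatory and NK cell ligands 2 of 18 were higher and 0 lower, against 1.37% and 0.57% of all tested genes. Cd274 encodes PD-L1, the ligand of the inhibitory receptor PD-1. It was at 2.19 and 2.37, then 8.12 and 5.81 CPM in WT, and at 2.37 and 2.11, then 56.9 and 52.7 in KO. The lines overlapped before irradiation, and only the irradiated KO libraries were above 10 CPM (interaction 3.04 ± 0.27, edgeR adjusted p = 0.00213). Lgals9, a galectin, had an interaction of 1.02 ± 0.10 (edgeR adjusted p = 0.00252). Both were called without each of the 8 libraries.

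Among 20 chemokines and cytokines 2 were higher and 0 lower, and 0 to 2 were called without 1 library. Ccl8, a chemokine for monocytes, had an interaction of 2.12 ± 0.28 (edgeR adjusted p = 0.0112). It was called in 5 of the 8 fits that leave out a library (adjusted p up to 0.0696). Csf1, the macrophage growth factor, had one of 0.61 ± 0.12 (edgeR adjusted p = 0.0453) and was called in 0 of these fits (up to 0.193). Cxcl10, which draws T cells, was at 0.890 and 0.723, then 41.9 and 22.8 CPM in WT, and at 2.28 and 1.61, then 332 and 294 in KO. Its interaction of 2.11 ± 0.69 did not pass in edgeR (adjusted p = 0.246) and passed in DESeq2 (adjusted p = 0.000634). Ccl5 (0.15 ± 0.66, edgeR adjusted p = 0.979) and the T and NK cell growth factor Il15 (0.89 ± 0.30, 0.267) did not pass. Of 21 NF-kB subunits and targets 0 passed in the main edgeR fit, with a median interaction of -0.02, and 1, a lower one, passed in DESeq2.

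Genes of cell death went in both directions. Of 19 tested, 3 were higher and 1 lower, against 1.37% and 0.57% of all tested genes, with a median of 0.10. Without 1 library, 1 to 2 were higher and 0 to 1 lower. Mlkl, which breaks the plasma membrane in necroptosis, was a reversed gene. It was at 182 and 179, then 137 and 123 CPM in WT, and at 153 and 149, then 250 and 235 in KO. It fell in WT and rose in KO, with no overlap between any 2 groups (interaction 1.18 ± 0.11, edgeR adjusted p = 0.00229). The anti-apoptotic gene Bcl2 did the reverse, at 16.4 and 16.8, then 25 and 23.1 CPM in WT, and at 16 and 15.4, then 9.62 and 9.12 in KO. The lines were close before irradiation and apart after it (interaction -1.25 ± 0.15, edgeR adjusted p = 0.00684). Casp4, the inflammatory caspase that senses lipopolysaccharide, had an interaction of 1.42 ± 0.20 (edgeR adjusted p = 0.0142). Its pore-forming substrate Gsdmd was gained (0.75 ± 0.10, edgeR adjusted p = 0.0125). Mlkl was called without each of the 8 libraries, Bcl2 without 7 of them (adjusted p up to 0.0547), Casp4 without 2 (up to 0.0719) and Gsdmd without 0 (up to 0.0642).

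Other reversed genes lay outside these lists or in lists with few calls. Ltbp1, which holds latent TGF-beta in the matrix, was at 209 and 216, then 108 and 123 CPM in WT, and at 74.3 and 78.5, then 142 and 155 in KO. It was higher in WT before irradiation and higher in KO after it (interaction 1.86 ± 0.13, edgeR adjusted p = 0.000968). Pnpt1, a mitochondrial RNA-degrading enzyme, was at 63.4 and 63.9, then 40.5 and 37.5 CPM in WT, and at 52.2 and 54.3, then 104 and 94.1 in KO. It too changed order between the lines (interaction 1.63 ± 0.12, edgeR adjusted p = 0.00117). Pdgfra, a growth factor receptor of mesenchymal cells, was at 23.4 and 24.9, then 44.1 and 44.8 CPM in WT, and at 51.7 and 49.6, then 41.5 and 41.7 in KO. The lines differed before irradiation and came close after it (interaction -1.14 ± 0.11, edgeR adjusted p = 0.00252). These 3 were called without each of the 8 libraries, and so was Tspan32, a tetraspanin (-1.54 ± 0.14, edgeR adjusted p = 0.00229). Plk2, a p53-induced kinase, was at the edge (-0.60 ± 0.11, edgeR adjusted p = 0.0475) and called in 0 of these fits (up to 0.228).

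For lost responses in the lower direction, the estimate for KO was above WT without irradiation for 16 of 20 genes. The interaction shares these non-irradiated libraries, and its choice favours such genes, so the count is not separate evidence. Klhl30, a kelch family gene, was at 5.58 and 6.50, then 29.4 and 36.9 CPM in WT, and at 26.6 and 26.3, then 35.2 and 34.3 in KO. All 4 KO libraries were close to irradiated WT (interaction -2.04 ± 0.19, edgeR adjusted p = 0.00229). Slc35f1, a transporter family gene, was at 1.13 and 1.05, then 10.1 and 8.95 CPM in WT, and at 9.02 and 7.24, then 10.5 and 8.25 in KO (interaction -2.88 ± 0.30, edgeR adjusted p = 0.00349). It followed the same order. Clstn3, a calsyntenin, had 0 and 0 reads in non-irradiated WT, so its fold has no fixed size. It was at 1.18 and 0.697 CPM after irradiation in WT, and at 13.9 and 12.4, then 18.6 and 17.4 in KO. On the linear CPM scale its rise was larger in KO, by 3.92 CPM. Klhl30 and Slc35f1 were called without each of the 8 libraries and Clstn3 in 2 of these fits (adjusted p up to 0.0694).

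Lost responses in the other direction were falls in WT that were not called in KO. Chac1, which degrades glutathione and is a target of the stress factor ATF4, was at 38.0 and 38.4, then 19.4 and 18.6 CPM in WT, and at 47.3 and 46.5, then 49.6 and 51.3 in KO. It fell by 1.07 on the log2 scale in WT, and its estimate in KO was 0.07 (interaction 1.14 ± 0.11, edgeR adjusted p = 0.00252). Ccnd2, a G1 cyclin, was at 139 and 157, then 79.5 and 81.8 CPM in WT, and at 183 and 183, then 209 and 216 in KO (interaction 1.11 ± 0.11, edgeR adjusted p = 0.00255). KO was above WT at both conditions, and more so after irradiation. Wnt5a, a secreted Wnt ligand, had an interaction of 0.94 ± 0.17 (edgeR adjusted p = 0.0412). Chac1 and Ccnd2 were called without each of the 8 libraries and Wnt5a in 0 of these fits (adjusted p up to 0.198).

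In the list of ATF4 and amino acid stress genes 3 of 27 were higher and 0 lower, against 1.37% and 0.57% of all tested genes. Of the 27, 24 had a positive estimate, and the median interaction was 0.37. Without 1 library, 1 to 3 were called. The list fell in both lines, with a median of -0.94 in WT and -0.69 in KO. Trib3, a pseudokinase, had a reduced fall (interaction 0.95 ± 0.14, edgeR adjusted p = 0.0153), as did the mitochondrial folate enzyme Mthfd2 (0.76 ± 0.13, edgeR adjusted p = 0.0335). They were called in 2 and 1 of the 8 fits without a library, with adjusted p up to 0.0801 and 0.148. Atf4 itself (0.27 ± 0.10, edgeR adjusted p = 0.312) and the stress factor Ddit3 (0.61 ± 0.16, edgeR adjusted p = 0.142) did not pass.

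Reduced responses were mostly increases that were smaller in KO on the log2 scale. The 32 lower genes of this class rose by a median of 2.41 (log2) in WT and 0.92 in KO. KO was above WT without irradiation for 31 of them, a count that the choice by interaction also favours. On the linear CPM scale 8 of the 32 had a positive difference, among them Dcn (12.7 CPM) and Lbp (14.2 CPM). Dcn, a small matrix proteoglycan, was at 1.84 and 1.58, then 41.1 and 36.9 CPM in WT, and at 9.57 and 7.89, then 62.5 and 54.9 in KO. It was higher in KO at both conditions, and the lines were closer after irradiation (interaction -1.71 ± 0.21, edgeR adjusted p = 0.00735). Fmod, a related proteoglycan, was at 2.25 and 2.10, then 16.8 and 18.3 CPM in WT, and at 6.11 and 4.93, then 10.9 and 9.70 in KO (interaction -2.07 ± 0.24, edgeR adjusted p = 0.00578). It was higher in KO before irradiation and lower after it. Lbp, the lipopolysaccharide-binding protein, rose from 0.119 and 0.263 to 16.4 and 13.9 CPM in WT and from 2.46 and 2.06 to 33.6 and 29.3 in KO (interaction -2.45 ± 0.39, edgeR adjusted p = 0.0229). Its first WT value is 2 reads. Fmod was called without each of the 8 libraries, Dcn without 7 of them (adjusted p up to 0.052) and Lbp without 0 (up to 0.142).

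Gained falls were 11 genes. Trib2, a pseudokinase related to Trib3, was at 61.8 and 59.1, then 65.1 and 58.0 CPM in WT, and at 34.4 and 29.3, then 12.7 and 12.9 in KO. The WT libraries overlapped between conditions, and the gene fell in KO (interaction -1.31 ± 0.15, edgeR adjusted p = 0.0051). Kazn, a junction-associated protein, was at 0.178 and 0.328, then 0.443 and 0.465 CPM in WT, and at 11.2 and 10.8, then 1.92 and 2.14 in KO (interaction -3.25 ± 0.46, edgeR adjusted p = 0.0138). KO was above WT at both conditions. Edn2, an endothelin, had an interaction of -2.87 ± 0.55 (edgeR adjusted p = 0.0484). Trib2 was called without each of the 8 libraries, Kazn in 1 of these fits (adjusted p up to 0.0773) and Edn2 in 0 (up to 0.225). Edn2 did not pass in DESeq2 (adjusted p = 0.0671). Enlarged falls were 11 genes, among them Lfng, a Notch-modifying enzyme (-1.02 ± 0.19, edgeR adjusted p = 0.0453), and Ccn1, a matrix protein and YAP target (-0.55 ± 0.11, edgeR adjusted p = 0.0493), both called in 0 of these fits. Lfng did not pass in DESeq2 (adjusted p = 0.0507).

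Among 41 S phase genes 1 was higher and 2 lower, against 1.37% and 0.57% of all tested genes, and 0 of them were called without any 1 library. Among 36 G2/M genes 0 were called in the main edgeR fit and 1, a lower one, in DESeq2. The helicase subunits Mcm6 (0.64 ± 0.09, edgeR adjusted p = 0.0158) and Mcm4 (-0.61 ± 0.10, edgeR adjusted p = 0.0246) went in opposite directions. Both were called in 0 of the fits without a library (adjusted p up to 0.111 and 0.139). Of 34 genes of DNA break repair and damage signalling 0 passed. Of 31 p53 targets 1 was higher, which was Tap1, and 1 lower, which was Plk2. The cell cycle inhibitor Cdkn1a was at 93.8 and 86.4, then 103 and 103 CPM in WT, and at 173 and 161, then 236 and 229 in KO. KO was the higher line at both conditions, and the interaction of 0.31 ± 0.11 did not pass (edgeR adjusted p = 0.282). The proliferation marker Mki67 had an interaction of -0.08 ± 0.25 (edgeR adjusted p = 0.966).

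Some lists leaned to 1 side with 0 calls in the main edgeR fit. Of 84 cytosolic ribosomal protein genes 5 had a positive estimate, against 7323 of all 14923 tested genes, with a median interaction of -0.22. It was 1 of 24 for cholesterol synthesis and uptake (median -0.32) and 1 of 13 for genes encoded in mitochondria (median -0.45). DESeq2 called 0, 1 and 2 genes of these 3 lists, all lower. In edgeR with a term for the replicate number it was 56, 13 and 4, all lower. Without a filter on low counts it was 1, 2 and 1, again all lower. The mitochondrial share of reads was 2.17% to 2.91% per library. In the lists of glycolysis, endoplasmic reticulum chaperones, complement and ERK output 0 genes passed in the main edgeR fit as well. DESeq2 called 2 lower genes of ERK output and 0 of the other lists in this group. Of 12 mechanosensitive channels 1 passed, Trpv2 (3.03 ± 0.48, edgeR adjusted p = 0.0231). On the linear CPM scale its rise was smaller in KO (difference -0.676 CPM). It was at 2.25 and 2.50, then 4.72 and 4.41 CPM in WT, and at 0.0911 and 0.101, then 1.72 and 1.5 in KO, so it was lower in KO than in WT at both conditions. The first of these KO values is 1 read, and the gene was called in 0 of the fits without a library (adjusted p up to 0.125) and did not pass in DESeq2 (adjusted p = 0.101).

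**Figure D4:**
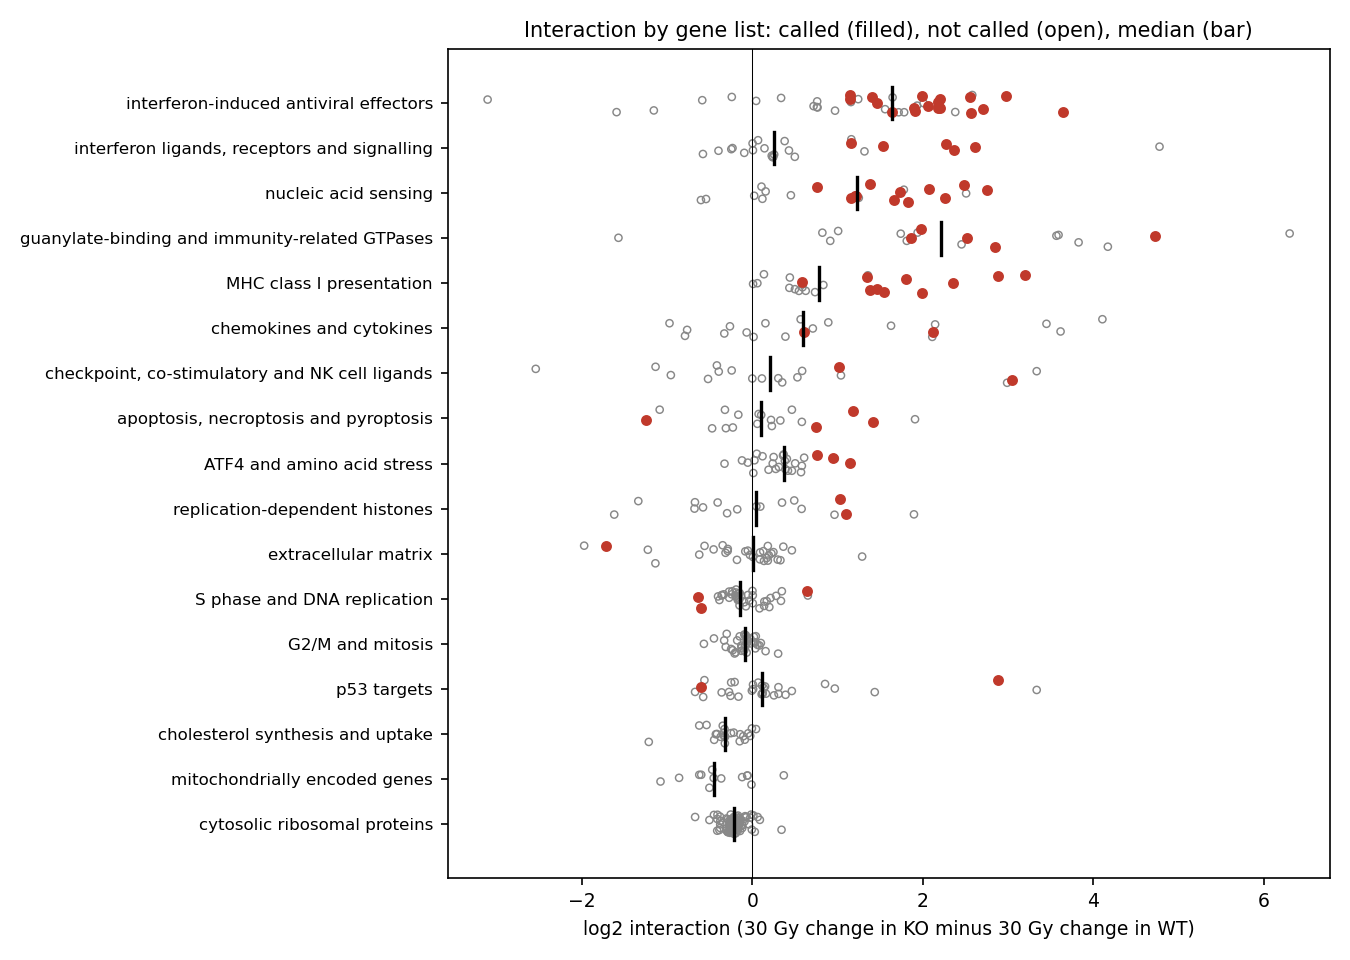
Each point is a tested member of a gene list with its log2 interaction on the x axis, filled where it was called and open where it was not, and the bar is the list's median. Called members of the first 5 lists are all to the right of 0 (50 of 126 genes), while the ribosomal, cholesterol and mitochondrial lists sit to the left of 0 with no called member.

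Over the first 5 lists together, 50 of 126 tested genes had a higher interaction and 0 a lower one, against 1.37% and 0.57% of all genes. The lists were drawn up with earlier results of these data known. All 35 lists together held 65 of the 205 higher and 8 of the 85 lower genes.

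Markers of other cell types were measured in the same libraries. The macrophage markers summed to 3.74 to 3.81 CPM per library before and 38.4 to 40.3 after irradiation in WT, and to 7.29 to 7.79, then 56.8 to 65.5 in KO. Most of that sum was Cd68, a lysosomal protein, with at most 945 reads, while Adgre1, Tyrobp and C1qa had at most 2, 2 and 1. Ptprc went from 0 and 2 reads to 20 and 20 in WT and from 0 and 0 to 6 and 7 in KO. Lyz2 went from 1 and 0 to 4 and 14 reads in WT and from 2 and 0 to 13 and 13 in KO. Ctss was at 2 reads or fewer elsewhere and at 10 and 17 in irradiated KO, and Csf1r likewise at 2 or fewer and at 6 and 10. Of 12 T and NK cell markers 10 were analysed, and their sum was at most 0.929 CPM. Fibroblast markers summed to 1120 to 1240 CPM before and 1670 to 1850 after irradiation in WT, and to 1550 to 1650, then 2630 to 2950 in KO, and 2 of 8 tested had a called interaction (Dcn and Pdgfra). Lum and Thy1 had at most 1 and 5 reads. Of 4 endothelial and 4 macrophage markers tested, 0 had a called interaction. The part of these sums in the results was not tested, and in bulk RNA fewer cells of a kind and less RNA per cell cannot be told apart.

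At the threshold itself, Synm (-1.05 ± 0.20) and Uhrf1 (-0.64 ± 0.12) lay just inside with an edgeR adjusted p of 0.0499. Oas3 (1.65 ± 0.32, edgeR adjusted p = 0.0507) and mt-Nd1 (-0.47 ± 0.09, edgeR adjusted p = 0.0510) lay just outside.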

How the data were processed

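The values are raw counts of reads for each Ensembl gene as deposited by the authors. The submitters' processing notes name HISAT, HISAT2, HTSeq, DESeq2 and the build mm10. Versions, the annotation release, the strand setting and the treatment of reads with several matches were not given in the sources used. Without the strand setting, sense and antisense reads at overlapping genes cannot be told apart. Of 29079 gene IDs, 28915 were given a symbol and position from GENCODE M21.

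Genes were kept with edgeR's filterByExpr (minimum count 10, minimum total 15), scaled with TMM (factors 0.9746 to 1.024) and fitted in edgeR 4.0.16 under R 4.3.3 with 1 coefficient per group and the quasi-likelihood F test, two-sided, with Benjamini-Hochberg adjustment over all 14923 genes. 4 residual degrees of freedom remained. CPM are counts per 1000000 reads of a library's total, and 3 counts are 0.151 to 0.273 CPM. Counts were simulated over 14626 genes, with true interactions given only to genes with many reads. A true log2 interaction of 2 was called for 100% of 50 genes and one of 1 for 40% of 50. Changes near 2-fold are thus often missed even there. The simulated spread was the same for all genes, and libraries varied independently. Genes with few reads and shared deviations of same-numbered libraries were not covered. Replicates did not agree within sampling noise, so all 8 libraries were counted. RefSeq promoters (GRCm38.p6) were matched by symbol for 10516 of 14921 tested genes.

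Members and lists were chosen with earlier results of these data known. Genes named are fixed anchors, the 10 largest interactions in each direction, the 4 largest of each class, and up to 4 called genes of each list with the smallest p; the 10 largest and the class genes had a mean of at least 5 CPM in their highest group. Not all of them are printed, a few results are not reported here, and the examples of list members that did not pass were the anchors only. Alternatives were a block for the replicate number, RLE size factors, DESeq2 1.42.0, no filter, a stricter filter and leaving out each library.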

Additional observations from a re-analysis of the deposited data

Results flagged for a closer look

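The irradiation responses of the 2 lines differed by the test of the interaction itself for 205 genes in the higher and 85 in the lower direction (edgeR's quasi-likelihood test). In 20 of them the response was called in both lines with opposite signs.

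Among genes that fell in WT and rose in KO were those with log2 interactions of 1.86 (Ltbp1), 1.63 (Pnpt1), 1.23 (Arsj), 1.18 (Mlkl), 1.05 (Sema4b), 0.97 (Atp10a), 0.78 (Wars) and 0.71 (Endod1). Wars encodes the tryptophanyl-tRNA synthetase, and Sema4b a semaphorin. Genes that rose in WT and fell in KO had log2 interactions of -3.02 (Gper1), -1.54 (Tspan32), -1.25 (Bcl2), -1.14 (Pdgfra), -0.97 (Aqp5), -0.97 (Clcn5), -0.93 (Mturn), -0.79 (St6gal1), -0.68 (Ttll7), -0.62 (Gm45837) and -0.60 (Plk2). Gper1, a membrane estrogen receptor, was at 0.593 and 0.591, then 1.99 and 1.92 CPM in WT, and at 2.01 and 2.46, then 0.663 and 1.10 in KO. DESeq2 gave no adjusted p for Gper1 and so did not call it. Aqp5 encodes a water channel and Clcn5 a chloride transporter. Ltbp1, Pnpt1, Mlkl, Sema4b, Atp10a, Tspan32 and Pdgfra were called without each of the 8 libraries in turn. Bcl2 was called in 7 of these fits, Wars in 5, Arsj in 3 and Clcn5 in 2. Aqp5, Mturn, St6gal1 and Endod1 were called in 1, and Gper1, Ttll7, Gm45837 and Plk2 in 0.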

How the results depend on the processing

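With a block for the replicate number, 1216 genes were higher (205 without it) and 1276 lower (85). The block gave 528 gained, 447 lost, 787 enlarged, 542 reduced and 180 reversed genes, and lines apart before irradiation only, after it only and at both for 533, 720 and 1211; all 290 calls were kept. By list, it called lower 56 of 84 cytosolic ribosomal protein genes, 13 of 24 of cholesterol synthesis, 4 of 13 encoded in mitochondria and 12 of 41 of S phase (with 4 higher), and higher 17 of 27 of ATF4 stress, 19 of 22 of MHC class I presentation and 10 of 18 GTPases. Of the named genes that did not pass without it, B2m, H2-K1, Irf7, Cxcl10, Il15, Atf4, Ddit3 and Cdkn1a passed with it (adjusted p from 2.82e-12 to 0.00115). Of lists with 0 calls without the block, it called 10 lower and 2 higher in glycolysis and 8 lower and 3 higher in ERK output. In G2/M it called 10 lower and 1 higher, in endoplasmic reticulum chaperones 5 higher and 2 lower, and in complement 0. For NF-kB it was 2 higher and 2 lower, and for DNA break repair 3 higher and 2 lower. Deviations of same-numbered libraries from their group means correlated at 0.497 to 0.586, but the labels do not say what a number marks. Without a filter there were 359 higher and 219 lower genes, 156 gained, 83 lost, 227 enlarged and 81 reduced, with 120, 254 and 198 apart before, after and at both. DESeq2 called 108 gained, 51 lost and 13 reversed genes; 274 of the 290 were called by it. The causes were not tested. RLE size factors and the stricter filter moved none of these counts by 1.5 times.

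Leaving out 1 library in turn gave 99 to 124 higher, 18 to 31 lower, 19 to 32 gained, 7 to 14 lost, 69 to 88 enlarged, 11 to 17 reduced and 6 to 12 reversed genes, with 8 to 17, 65 to 92 and 37 to 54 apart before, after and at both; these fits have fewer samples, and the lone library of a group is assumed to vary like the other groups. Mki67, not called, ranged from -0.27 to 0.088, with 0.088, 0.088, 0.041 and 0.084 without WT non-irradiated 1, WT irradiated 2, KO non-irradiated 2 and KO irradiated 1, and Ccl5, not called, from -0.769 to 0.741, with -0.769 and -0.105 without WT non-irradiated 2 and KO irradiated 2.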

Other observations

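The genes in this paragraph were chosen after their values were seen. Daxx, a histone chaperone of nuclear bodies, was at 41.2 and 41.1, then 71.5 and 62.4 CPM in WT, and at 37.9 and 39.5, then 317 and 314 in KO (interaction 2.35 ± 0.12, edgeR adjusted p = 0.000398). The lines were close before irradiation, and the irradiated KO libraries were far above all others. Rnf213, a large ubiquitin ligase, showed the same order, with an interaction of 2.25 ± 0.24 (edgeR adjusted p = 0.00412). Slc25a22, a mitochondrial glutamate carrier, was at 16.7 and 18.1, then 13.9 and 15 CPM in WT, and at 15.6 and 17.7, then 60.0 and 64.5 in KO (interaction 2.18 ± 0.15, edgeR adjusted p = 0.000968). The response was called in KO alone. Setdb2, a SET domain protein, was gained as well (1.74 ± 0.18, edgeR adjusted p = 0.00391).

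Txnip, an inhibitor of thioredoxin and glucose uptake, was at 6.41 and 5.12, then 227 and 258 CPM in WT, and at 19.9 and 20.01, then 247 and 270 in KO (interaction -1.67 ± 0.17, edgeR adjusted p = 0.00336). The lines reached similar levels after irradiation from different starting levels. Slc7a2, a carrier of cationic amino acids, was at 16.7 and 17.0, then 57.0 and 51.4 CPM in WT, and at 162 and 148, then 227 and 205 in KO (interaction -1.18 ± 0.13, edgeR adjusted p = 0.00412). It was higher in KO at both conditions, and on the linear CPM scale its rise was larger in KO, by 23.5 CPM. The Notch ligand Jag1 rose in WT without a called change in KO (interaction -1.24 ± 0.16, edgeR adjusted p = 0.0079). All of these genes but Jag1 were called without each of the 8 libraries in turn, and Jag1 without 6 of them (adjusted p up to 0.058). Enpp5 and Gja4 had 0 and 0 reads in non-irradiated KO, so their fitted interactions have no fixed size and are not given. Enpp5, of a family of nucleotide-cleaving enzymes, was at 8.84 and 8.41, then 24.5 and 20.9 CPM in WT, and at 3.25 and 2.37 in irradiated KO.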
